A study of Homo sapiens with 4 samples.

Results

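The genes described here are 10 genes of the translation machinery, EEF1A1, EEF1B2, EEF1G, EEF2, EIF3E, EIF3F, EIF3L, EIF4B, TPT1 and GLTSCR2, out of 15636 genes listed in the count tables of all 4 libraries. They were chosen by name, with earlier results of these data known, to describe how far each follows the share of ribosomal protein messages over libraries and over cells. Because of that choice, the shares and ranks of other genes set beside the 10 below are a description and not a test. The cells are HCC1143, an established human line from a triple-negative breast carcinoma, profiled by 10x Chromium single-cell RNA-seq with poly(A) capture. The groups were cells in solvent (DMSO) for 24 h, in 1 nM paclitaxel for 24 h, in solvent for 72 h and in 1 nM paclitaxel for 72 h. All were of the same line, plated a day before, and each group is 1 library. Values given in fours keep this order: solvent and drug at 24 h, then solvent and drug at 72 h. Paclitaxel is a taxane that stabilises microtubules.

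After a filter on genes and mitochondrial UMIs (unique molecular identifiers, 1 per captured RNA molecule), 3180 of 3194 cell barcodes were kept: 1101, 776, 783 and 520. Summed UMIs per library lay between 34850724 and 72024235, and median UMIs per cell between 54864 and 59670. Up to 4 barcodes were shared by any pair of libraries. All 7 epithelial markers were listed in every library, summing to 2049.9 to 4462 CPM (counts scaled to 1000000 UMIs per library), against 5.77 to 20.7 CPM for 5 immune markers and 10.3 to 14.4 CPM for 7 fibroblast and endothelial markers. The immune sum was mostly CD68 and the stromal sum mostly COL1A1. PTPRC and CD79A were listed in the paclitaxel 72 h table alone, at 0.287 CPM each, and CD3E, DCN, LUM and PECAM1 in none. With 1 library per group there is no test across samples, and every interval below is an exact 95% interval that covers counting error only.

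Translation elongation uses eEF1A, encoded by EEF1A1, to bring aminoacyl-tRNA to the ribosome. The eEF1B complex, with EEF1B2 and EEF1G among its subunits, recharges eEF1A with GTP, and eEF2 moves the ribosome along the message. Initiation uses the many-subunit eIF3, here EIF3E, EIF3F and EIF3L, which binds the small ribosomal subunit, and eIF4B, which assists the helicase that opens the message. TPT1 encodes the translationally controlled tumour protein, and GLTSCR2, now named NOP53, encodes a nucleolar factor of large-subunit assembly; neither is a translation factor in the strict sense. Messages of ribosomal proteins and of several of these factors are known to begin with a terminal oligopyrimidine (TOP) sequence, a C followed by a run of C or T, through which their translation is controlled together by mTOR signalling.

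RefSeq (GRCh38.p14) gave a promoter entry for 8 of the 10 genes, with GLTSCR2 matched as NOP53. The sequences below show 15 bases on each side of the annotated start because a TOP sequence begins there. They read 5′ to 3′ on the gene's strand, and capitals mark a run of C or T that begins with C at the first transcribed base and holds at least 5 bases.
EEF1A1: gtcgccgtgaacgttCTTTTTCgcaacggg
EEF1B2: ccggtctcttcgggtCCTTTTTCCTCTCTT
EEF2: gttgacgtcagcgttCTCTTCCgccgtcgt
EIF3F: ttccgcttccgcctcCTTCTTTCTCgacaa
EIF4B: ttgcctcatccgggtCTTTTgcgttctctt
TPT1: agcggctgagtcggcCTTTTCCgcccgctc
GLTSCR2: gccagtggctgagttCTTCCTTTgacaaga
EEF1G: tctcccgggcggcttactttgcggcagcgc
The windows lie at chr6:73521018-73521047 (EEF1A1, minus strand), chr2:206159880-206159909 (EEF1B2, plus), chr19:3985449-3985478 (EEF2, minus), chr11:7987322-7987351 (EIF3F, plus), chr12:53006441-53006470 (EIF4B, plus), chr13:45341169-45341198 (TPT1, minus), chr19:47745531-47745560 (GLTSCR2, plus) and chr11:62573877-62573906 (EEF1G, minus).

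Of the 8 genes with an entry, 7 had such a start (for EEF1B2, the downstream one of its 2 annotated starts), and EEF1G did not. The same start was found in 157 of 1571 other genes (9.99%) of at least 50 CPM in every library, counted per gene in the same way, in 4.07% of all 35116 promoter entries and in 47 of 64 ribosomal protein genes with an entry (73.4%). It was read on the gene's strand only, and the starts are annotated ones: transcript ends were not measured here.

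The level of the 79 cytosolic ribosomal protein genes sets the frame. They made up 28.0%, 33.1%, 40.7% and 28.8% of all UMIs. The 10 genes together made up 0.802%, 1.14%, 1.62% and 1.13%. Both sums were highest in the DMSO 72 h library, but for the 10 genes the paclitaxel 72 h library lay next to paclitaxel 24 h, while for ribosomal proteins it lay next to DMSO 24 h.

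Among the elongation genes, EEF1A1 was at 3620.0, 5102, 7479.8 and 4844 CPM. Its message was 2.07 times as frequent in DMSO at 72 h as at 24 h (log2 ratio 1.05, interval 1.04 to 1.05), against 1.45 times for the ribosomal proteins as a sum. Single ribosomal protein genes lay on both sides of that sum, and some passed EEF1A1, up to a log2 ratio of 1.43. EEF2, the translocase gene, was at 585, 837, 1290.2 and 925 CPM. EEF1B2, the exchange factor subunit, was at 959.9, 1084, 1366 and 864 CPM, and had the smallest span of the 10 genes and was the only one lowest in paclitaxel 72 h.

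Among the initiation genes, EIF3E was at 348, 648, 1044 and 694 CPM. EIF3F was at 213, 322, 518 and 319 CPM, and EIF3L at 163, 277, 454 and 262 CPM. All 3 of these eIF3 subunit genes were thus lowest in DMSO 24 h and highest in DMSO 72 h, with both paclitaxel libraries between them. EIF4B was at 86.9, 151, 238 and 122 CPM, the same order with a wider gap between the paclitaxel libraries.

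Of the remaining genes, GLTSCR2 had the widest span among the 9 genes above 50 CPM, with 149, 356, 529.6 and 342 CPM. TPT1 was at 1878, 2609, 3270.1 and 2867 CPM. EEF1G was at only 11.9, 28.7, 38.3 and 45.5 CPM and was the only member highest in paclitaxel 72 h, an order that did not hold without ribosomal protein and mitochondrial genes in the totals (73.0 in DMSO 72 h and 70.5 in paclitaxel 72 h).

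**Figure D1:**
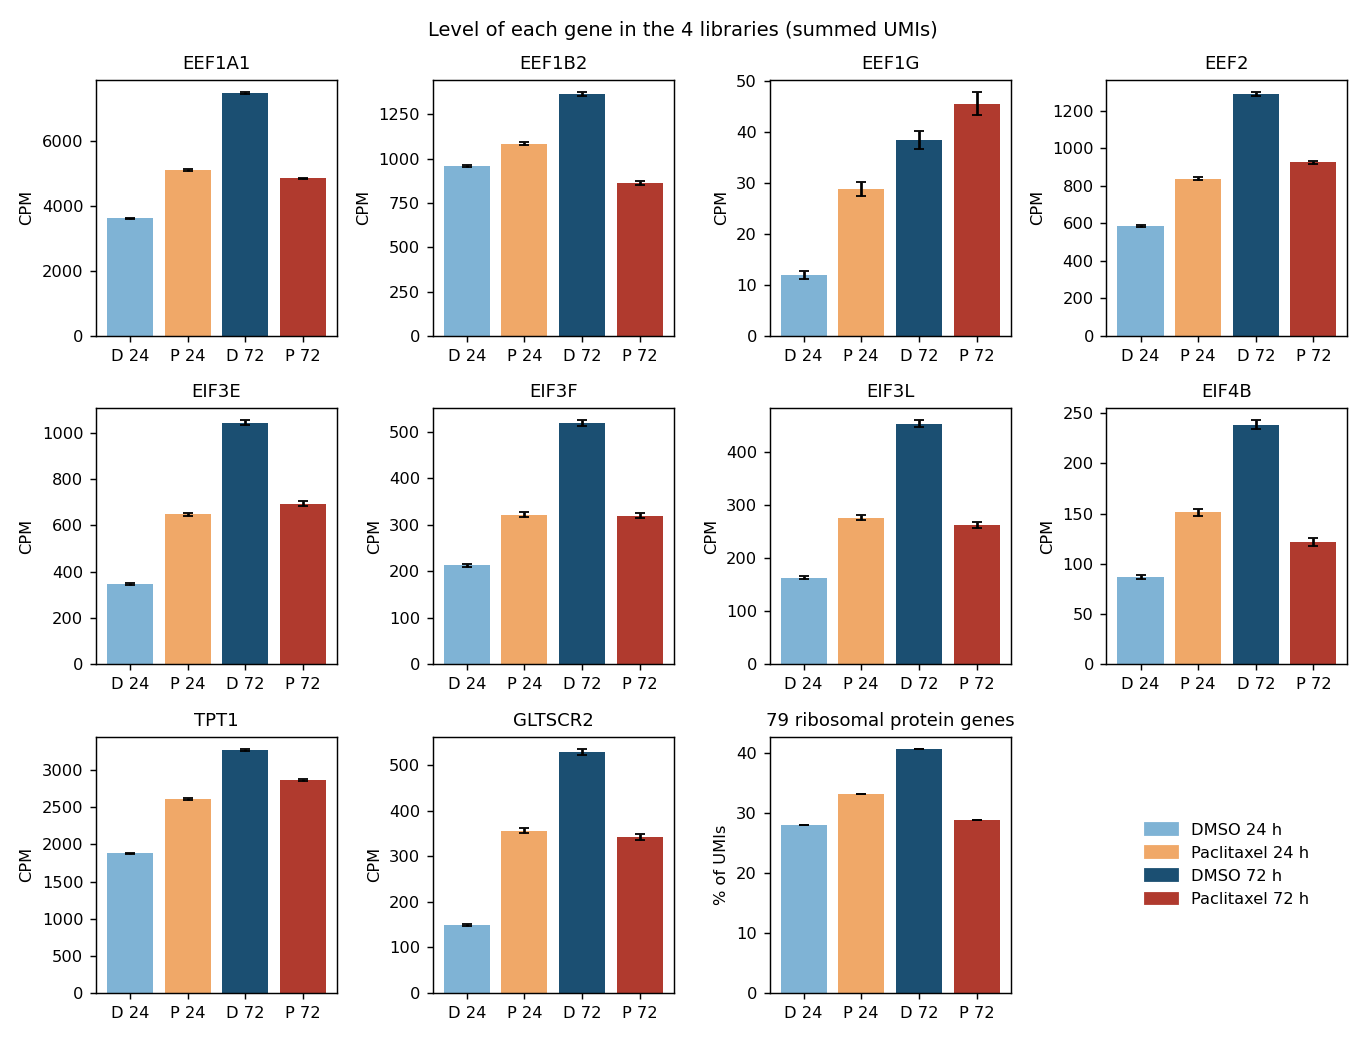
Level of each of the 10 genes in CPM (bars, from summed UMIs of 1 library each; D, DMSO; P, paclitaxel; 24 and 72, hours) and the summed share of 79 ribosomal protein genes in % of UMIs; error bars are exact 95% Poisson intervals. DMSO 72 h is the highest bar for 9 of the 10 genes and for the ribosomal proteins (40.7%), and EEF1G is highest in paclitaxel 72 h at 45.5 CPM, though not without ribosomal protein and mitochondrial genes in the totals.

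DMSO 72 h was the highest of the 4 libraries for 9 of the 10 genes, against 7.19% of 2503 other genes. Other genes here and below are those averaging 50 CPM or more, without the 10 and the ribosomal proteins. It was highest for 70 of 79 ribosomal protein genes. The fuller order of the ribosomal protein sum, with paclitaxel 24 h second, held for 6 of the 10 (EEF1A1, EEF1B2, EIF3F, EIF3L, EIF4B and GLTSCR2), for 65 of 79 ribosomal protein genes and for 2.32% of other genes. For EEF2, EIF3E and TPT1 the paclitaxel 72 h library came second instead, but which paclitaxel library was higher depended on the scaling. With TMM factors, paclitaxel 72 h lay below 24 h for all 3 (log2 ratios -0.08, -0.13 and -0.09), and 9 of the 10 had the ribosomal protein order. With totals that leave out ribosomal protein and mitochondrial genes, 7 had it.

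From 24 h to 72 h in DMSO, 9 of the 10 genes were at least 1.5-fold higher, where 4.87% of 2382 other genes were, and 0 were lower, where 36.7% of other genes were. GLTSCR2 had the largest ratio of those above 50 CPM (3.56-fold, log2 1.83, interval 1.80 to 1.86), followed by EIF3E (log2 1.58), EIF3L (2.78-fold) and EIF4B (2.74-fold). EEF1B2 was at 1.42-fold, close to the ribosomal proteins as a sum. The median log2 ratio was 1.37 over the 10 genes and -0.43 over the other genes. It was 0.65 over the 79 ribosomal protein genes, of which 47 were at least 1.5-fold higher and 1 was lower.

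With paclitaxel at 24 h against DMSO at 24 h, 6 of the 10 genes were at least 1.5-fold higher, where 3.81% of 2545 other genes were, and 0 were lower (4.48% of other genes). These were GLTSCR2 (2.39-fold), EEF1G (2.41-fold), EIF3E (1.86-fold), EIF4B (1.74-fold), EIF3L (1.70-fold) and EIF3F (1.51-fold). The ribosomal protein sum was at 1.18-fold. EEF1B2 was again the lowest, at 1.13-fold.

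With paclitaxel at 72 h against DMSO at 72 h the direction was the opposite. Here 7 of the 10 genes were at least 1.5-fold lower, where 1.60% of 2432 other genes were, and 0 were higher (28.9% of other genes). Taking both times, 9 of the 10 had a ratio above 1 at 24 h and below 1 at 72 h, as did 5.79% of 2503 other genes; the difference between the times was not tested. EIF4B had the lowest ratio (log2 -0.97, interval -1.02 to -0.92), then EIF3L (-0.79) and EIF3F (-0.70). EEF2 (-0.48) and TPT1 (-0.19) were lower by less, and the ribosomal protein sum was at -0.50. Of the 79 ribosomal protein genes, 23 were at least 1.5-fold lower and 0 higher. EEF1G was at 0.25, but at -0.05 when ribosomal protein and mitochondrial genes were left out of the totals and at -0.03 with TMM factors.

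Between the paclitaxel libraries, 72 h against 24 h, the ratios lay nearer to 1: log2 ratios ran from -0.33 (EEF1B2) and -0.31 (EIF4B) to 0.14 (EEF2, which was below 0 with TMM factors) and 0.66 (EEF1G). EEF1G alone was at least 1.5-fold higher, where 9.70% of 2608 other genes were, and under 3 of the alternative scalings it was not. None was 1.5-fold lower (3.03% of other genes). These comparisons share libraries with each other, so they are not independent.

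Each CPM is a share of a library in which the ribosomal proteins are a large part, so it does not tell a higher number of molecules from a lower number of all others. In DMSO, 72 h against 24 h, the median log2 ratio of all genes above 50 CPM was -0.41. It was -0.12 with totals that leave out ribosomal protein and mitochondrial genes. With those totals the ratios of the 10 genes were larger, for example 1.34 for EEF1A1, 1.88 for EIF3E and 2.13 for GLTSCR2.

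Over the cells within each library the genes also went with the ribosomal protein share. The share itself varied from cell to cell: its 5th to 95th percentile was 20.1% to 37.5% in DMSO 24 h, 21.2% to 46.0% in paclitaxel 24 h, 28.4% to 49.2% in DMSO 72 h and 14.4% to 42.4% in paclitaxel 72 h. Spearman's rho between a gene's CPM in a cell and that share is given as a description, since cells of 1 library are not replicates and both quantities share the cell's total. EEF1A1 had a rho of 0.754, 0.810, 0.635 and 0.675 over the cells of the 4 libraries. These values are of the size of those of the ribosomal protein genes themselves, whose median rho was 0.721, 0.756, 0.631 and 0.606.

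EIF3E had a rho of 0.67, 0.73, 0.55 and 0.57, and GLTSCR2 one of 0.57, 0.80, 0.59 and 0.65. EEF2 differed most between libraries, with 0.30 in DMSO 24 h and 0.70 in paclitaxel 24 h. TPT1 had the lowest values among genes above 50 CPM after 72 h, 0.30 in DMSO and 0.35 in paclitaxel. For all 10 genes the rho was above 0 in each library.

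A rho of at least 0.3 was reached by 9 of the 10 genes in DMSO 24 h, where 0.529% of 2647 other genes reached it. That count was 7 with cells thinned to 20000 UMIs, where EEF2 was at 0.286 and EIF4B at 0.259, and EEF2 was at 0.194 in cells above the median UMIs. The value of 0.3 was reached by 10 of 10 in paclitaxel 24 h (1.88% of 2452 other genes), by 8 of 10 in DMSO 72 h (1.48% of 2097) and by 10 of 10 in paclitaxel 72 h (0.991% of 2725). The genes below it were EEF1G in both DMSO libraries and TPT1 in DMSO 72 h (0.298). The median rho of the other genes was negative in each library, from -0.236 to -0.115. It lay between -0.0579 and -0.00244 when a gene was counted per UMIs without ribosomal protein and mitochondrial genes, and the median of the 10 genes was then 0.633 to 0.775. With cells thinned to 20000 UMIs, which left out 17 to 39 cells per library, the median of the 10 genes was 0.447, 0.623, 0.487 and 0.518.

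**Figure D2:**
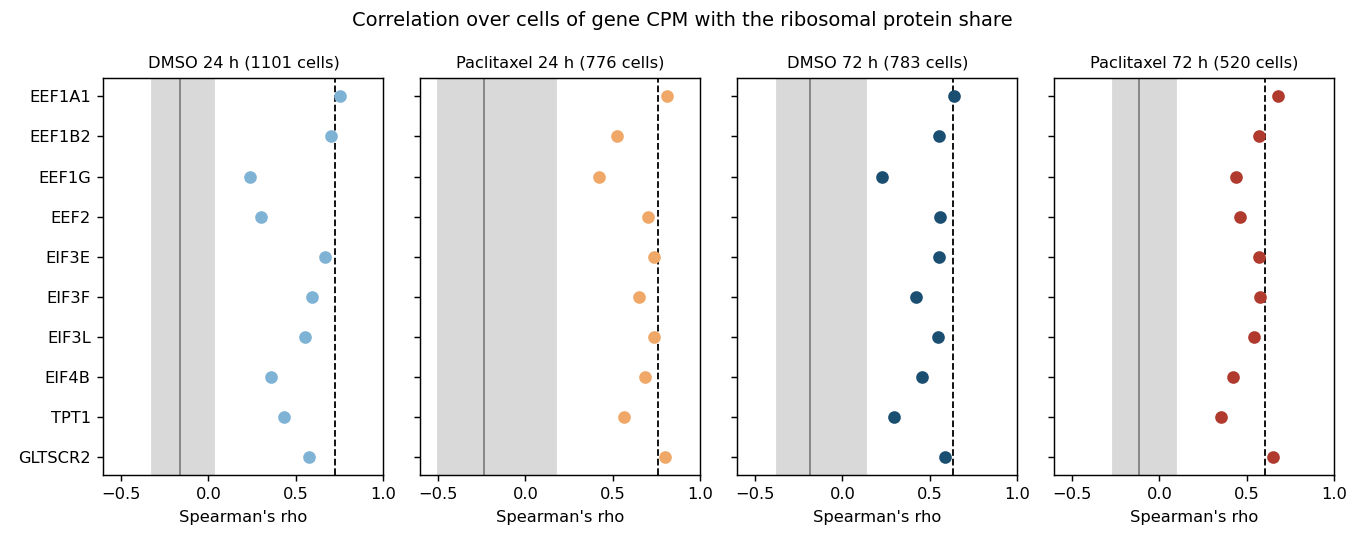
Spearman's rho over the cells of each library between a gene's CPM and the ribosomal protein share (x axis), 1 point per gene; the grey band spans the 5th to 95th percentile of other genes of at least 50 CPM, the grey line is their median and the dashed line the median of 79 ribosomal protein genes. All 10 points lie to the right of the band in each library, and EEF1A1 lies beyond the dashed line in each, at 0.635 to 0.810.

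The genes were then ranked among all 1899 genes of at least 50 CPM in every library, without ribosomal protein and mitochondrial genes, by the mean rho of the 4 libraries. The 9 of the 10 genes that passed this minimum took rank 1 (EEF1A1, mean rho 0.72), 3 (GLTSCR2), 4 (EIF3E), 5 (EIF3L), 6 (EEF1B2), 8 (EIF3F), 11 (EEF2), 12 (EIF4B) and 17 (TPT1, 0.41). EEF1G was too low in every library to be ranked.

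In plain units, the 25% of cells with the highest ribosomal protein share were set against the 25% with the lowest within each library. In paclitaxel 72 h, with 130 cells in each set, the share was 39.0% against 17.6%, a 2.22-fold difference. EEF1A1 was at 7330.4 against 2425 CPM in these cells (3.02-fold) and GLTSCR2 at 541 against 154 CPM (3.52-fold). Both differed between the sets by more than the ribosomal protein share did.

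In DMSO 72 h the sets, of 195 cells each, differed less in share (47.4% against 32.3%, 1.47-fold), and EEF1A1 was at 8928 against 5499.9 CPM (1.62-fold). In paclitaxel 24 h, with 194 cells per set and a 1.80-fold difference in share, GLTSCR2 had the largest ratio of any member in any library (632 against 138 CPM, 4.57-fold, interval 4.35 to 4.81). EIF4B followed it there at 259.9 against 71.3 CPM (3.64-fold). TPT1 had smaller ratios, between 1.22-fold and 1.68-fold over the libraries.

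All 10 genes were at least 1.2-fold higher in the high-share cells of each library, where 1.81%, 7.54%, 4.63% and 4.0% of other genes were. For 8 of the 10 the ratio exceeded that of the ribosomal protein share in each library taken alone. The exceptions were TPT1 in each library, EEF1B2 in paclitaxel 24 h, EEF1G in DMSO 72 h and EEF2 in both DMSO 24 h and paclitaxel 72 h. EEF2 was at 694 against 533 CPM in DMSO 24 h.

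Other properties of the cells moved with the share. Summed G2/M phase genes were lower in the high-share cells, at 3700.2 against 5926 CPM in DMSO 24 h and 1847 against 4707 CPM in DMSO 72 h. The median mitochondrial share was 5.53% in the high-share and 8.03% in the low-share cells of DMSO 72 h, but 6.76% and 6.92% in paclitaxel 24 h. In paclitaxel 72 h it was 5.61% in the high-share and 7.66% in the low-share cells. There the low-share cells also had fewer UMIs (median 47737, against 60757 in the high-share cells). In cells with no UMI of the cycling genes MKI67 or TOP2A (50, 145, 210 and 194 cells), the median rho of the 10 genes was 0.630, 0.713, 0.480 and 0.498. Over all cells it was 0.563, 0.692, 0.550 and 0.553. Single genes moved either way. TPT1 was lower in the cells without these UMIs in each library (0.341, 0.389, 0.160 and 0.265, against 0.433, 0.562, 0.298 and 0.353). GLTSCR2 was higher in those of DMSO 24 h (0.667 against 0.573). The part of the mitochondrial share in the relation was not tested.

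Cells of a like ribosomal protein share were then compared between libraries. In cells with a share of 30 to 35%, of which there were 233, 174, 86 and 99, EEF1A1 was at 4703, 4888, 5483 and 5791 CPM. The highest library was 1.23 times the lowest, against 2.07 times over all cells. EEF1B2 was at 1190.3, 1091, 1114 and 902 CPM in these cells, a span of 1.32 times against 1.58 over all cells.

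GLTSCR2 kept more of its span, with 196, 314, 377 and 432 CPM in the cells of 30 to 35% share (2.21 times, against 3.56 over all cells). EIF3E was at 449, 550, 756 and 759 CPM, and EEF2 at 621, 748, 871 and 1081 CPM. In these 3 genes the lowest value was that of DMSO 24 h and the highest that of paclitaxel 72 h (for EIF3E level with DMSO 72 h). This is not the order of the ribosomal protein share of whole libraries. Within this class, however, the median share was 32.07%, 32.43%, 32.78% and 32.95%, which runs in the same order, so the match was not exact. EIF4B differed from these 3 genes in that DMSO 72 h was the highest (171 CPM, against 100 in DMSO 24 h and 131 in paclitaxel 72 h).

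**Figure D3:**
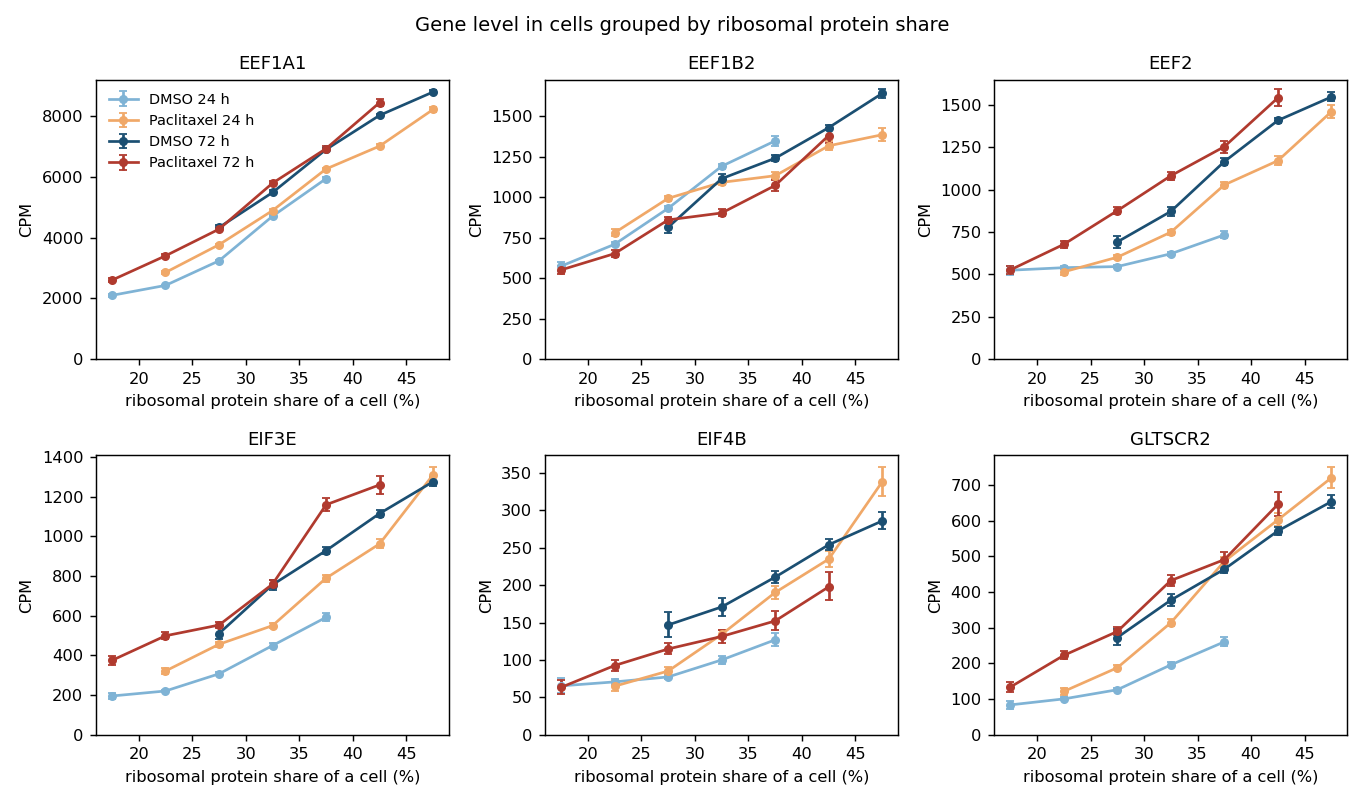
CPM of 6 of the genes (y axis, from 0) in cells grouped by ribosomal protein share in steps of 5 percentage points (x axis, middle of the step), for each library with at least 30 such cells; error bars are exact 95% Poisson intervals. Each line climbs to the right from its first to its last point, and the DMSO 24 h line lies lowest in the step of 30 to 35% for 5 of the 6 genes, the exception being EEF1B2 (1190.3 CPM).

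DMSO 24 h was the lowest library for 9 of the 10 genes in cells of 25 to 30%, of 30 to 35% and of 35 to 40% share, with EEF1B2 the exception in each. It was the lowest for 21.3%, 28.0% and 29.4% of other genes in these classes. The classes are 5 percentage points wide, and the median share within them still differed between libraries. It was 27.25%, 27.20%, 28.23% and 27.55% in the class of 25 to 30%, and 36.56%, 37.24%, 37.96% and 36.56% in that of 35 to 40%. The part of this difference in the order of the libraries was not tested. In the middle class 6 of the 10 genes differed at least 1.5-fold between the highest and the lowest library, where 39.4% of 2493 other genes did, so this count is nearer to the background than those above. It was 7 of 10 (49.5% of other genes) in the class of 25 to 30% and 5 of 10 (45.3%) in that of 35 to 40%. Over all cells 10 of 10 did, where 61.0% of other genes did. The median ratio of the highest to the lowest library for the 10 genes was 2.59 over all cells and 1.62 in the middle class. For other genes the median in the middle class was 1.41.

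The libraries of DMSO 24 h and paclitaxel 72 h had nearly the same summed ribosomal protein share (28.0% and 28.8%), and their comparison was added after the data had been seen. In it 6 of the 10 genes were at least 1.5-fold higher in paclitaxel 72 h, where 14.1% of 2689 other genes were, and 3 of the 10 with TMM scaling. EIF3E was 1.99-fold higher and GLTSCR2 2.30-fold higher, while EEF1B2 was at 0.900-fold. EIF3F lay at the threshold, just under 1.5-fold. The median log2 ratio was 0.63 over the 10 genes, -0.06 over other genes and 0.16 over the 79 ribosomal protein genes.

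EEF1G stood apart in level. Its CPM of 11.9 to 45.5 rests on 859 to 1887 UMIs per library. In GENCODE 29 on GRCh38, EEF1G lies on chromosome 11 from 62559601 to 62574086, and 99.99% of this span lies inside a protein-coding gene of the same strand, AP002990.1 (62559603 to 62591531). AP002990.1 is not listed in the tables. Reads shared by 2 overlapping genes may go uncounted, and whether this lowered the counts of EEF1G was not tested, so its level is uncertain. EEF1A1 has 39 annotated pseudogenes by name, TPT1 14, EIF4B 9 and EEF1B2 8, none of them listed in the tables, and reads shared with such copies make those levels uncertain as well.

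Pairs of the 10 genes were also compared over cells; since each gene goes with the same ribosomal protein share and pairs share the cell's total, these values are not separate from those above. All 45 pairs had a positive rho over cells in each library, with a median of 0.34 in DMSO 24 h, 0.56 in paclitaxel 24 h, 0.36 in DMSO 72 h and 0.34 in paclitaxel 72 h. Of all pairs of other genes 68.1%, 70.2%, 66.7% and 71.9% were positive, with medians of 0.0342, 0.0607, 0.0372 and 0.0479. EEF1A1 was in the pair with the highest value in each library, with EIF3E in both DMSO libraries (0.70 and 0.72), with GLTSCR2 in paclitaxel 24 h (0.78) and with EIF3F in paclitaxel 72 h (0.61). The lowest pair without EEF1G was EIF4B with TPT1 in both DMSO libraries (0.157 in each).

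The spread over cells was wide. In DMSO 24 h only 0.636% of cells had a GLTSCR2 level above its DMSO 72 h cell median of 511 CPM, and 3.09% had an EEF1A1 level above its DMSO 72 h cell median. In paclitaxel 24 h these shares were 29.6% and 17.7%, and in paclitaxel 72 h 18.7% and 14.8%. For GLTSCR2 and EEF1A1 the paclitaxel libraries thus held cells at the level of untreated cells at 72 h, beside cells far below it. Over all the genes described, the share ran from 16.0% (EIF3F) to 36.9% (EEF1G) in paclitaxel 24 h. In paclitaxel 72 h it ran from 12.5% (EIF4B) to 53.1% (EEF1G). GLTSCR2 had a median of 22 and 15 UMIs per cell in the paclitaxel libraries, so counting error is part of its spread.

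The other cytosolic translation factors were looked at in the same way. Of 57 listed, 32 had a mean of at least 50 CPM in the DMSO libraries, and 5 were at least 1.5-fold higher at 72 h than at 24 h while 15 were lower (7 lower when ribosomal protein and mitochondrial genes were left out of the totals). Of all other genes 4.87% were higher and 36.7% lower in this comparison, so the count of lower factors is near that background, and the list counts below, of 2 to 10 genes each, are to be read against the same shares. Over cells, a rho of 0.3 was reached by 3 of 32 of these factors in DMSO 24 h and by 2 of 31 in paclitaxel 24 h. At 72 h it was reached by 4 of 30 in DMSO and by 3 of 33 in paclitaxel. The shares of other genes that reached it were 0.529%, 1.88%, 1.48% and 0.991%. The counts of factors rest on few and mostly the same genes, and their difference from these shares was not tested. EEF1D and EIF3H reached it in all 4 libraries, EIF3K in 3 and EIF3D in DMSO 72 h.

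Within eIF3 the subunits went different ways. Among 8 other subunit genes measured in DMSO, 4 had a 72 h level 1.5-fold or more above that of 24 h and 1 was lower. EIF3H was at 289, 479.8, 644 and 512 CPM, with a rho of 0.48 to 0.68. EIF3D was at 131, 171, 198 and 181 CPM. EIF3J, a loosely bound subunit, was at 256, 260, 166 and 257 CPM, with a negative rho in each library (-0.45 to -0.18), and EIF3I was at 102, 102, 84.6 and 119.9 CPM.

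In the list of other elongation genes, EEF1D, a further exchange factor subunit, was at 2091, 2178, 2391 and 1665 CPM, with a rho of 0.37 to 0.51. EIF5A, which relieves ribosome stalling, went the other way at 371, 248, 147 and 191 CPM, with a rho of -0.52 to -0.13. Of 3 other genes of the elongation list measured in DMSO, 0 were higher at 72 h and 2 lower: EIF5A and VARS. VARS, named after its values were seen, encodes a valyl-tRNA synthetase and is no elongation factor; it was at 67.7, 47.9, 33.0 and 45.0 CPM.

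Of 10 measured genes of eIF1, eIF2, eIF5 and eIF6, 0 were at least 1.5-fold higher at 72 h in DMSO and 7 were lower, with 2 lower when ribosomal protein and mitochondrial genes were left out of the totals. EIF5, which triggers GTP hydrolysis by eIF2, was at 185, 194, 92.7 and 202 CPM, and DENR, a reinitiation factor, at 263.8, 184, 152 and 148 CPM. EIF1 (441, 542, 524 and 779 CPM) and EIF1B (50.6, 64.7, 63.3 and 114 CPM) were highest in paclitaxel 72 h. None of this group had a rho of 0.3 in any library. Only 0.529% to 1.88% of other genes had one, so this is near that background.

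Of 9 measured eIF4 and poly(A)-binding genes, 1 was at least 1.5-fold higher at 72 h in DMSO and 3 were lower. EIF4A2, a helicase paralogue, was the higher one, at 85.0, 131, 173 and 258 CPM, thus highest in paclitaxel 72 h. EIF4G2 was at 307, 200, 160 and 177 CPM and EIF4EBP1, an mTOR-regulated inhibitor of eIF4E, at 229, 194, 119 and 196 CPM. PABPC1 was at 1154, 1056, 1231 and 1088 CPM.

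The termination factor gene GSPT1 was at 96.0, 77.2, 55.6 and 70.2 CPM, and 2 of 2 measured termination genes were lower at 72 h in DMSO, but 0 without ribosomal protein and mitochondrial genes in the totals. The mitochondrial elongation factor gene TUFM was at 161, 205, 141 and 172 CPM with a rho between -0.22 and 0.06, and 0 of 2 measured mitochondrial factors passed 1.5-fold either way in DMSO.

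**Figure D4:**
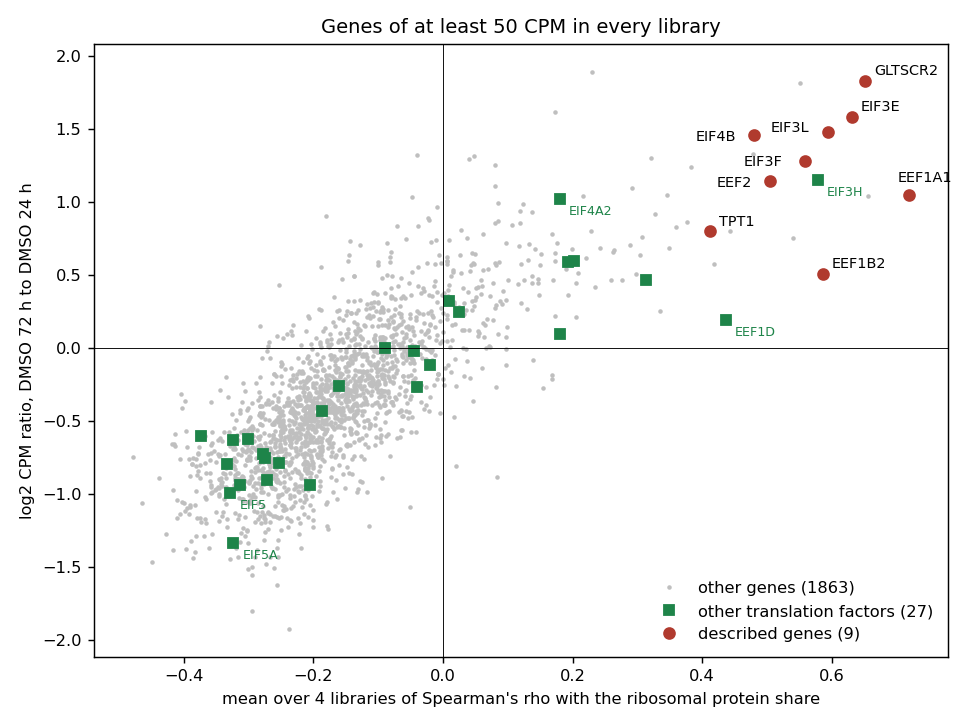
Each point is 1 gene of at least 50 CPM in every library: x axis, mean over 4 libraries of Spearman's rho with the ribosomal protein share; y axis, log2 CPM ratio of DMSO 72 h to DMSO 24 h; red, 9 of the 10 described genes; green, 27 other cytosolic translation factors; grey, 1863 other genes. The red points lie at the upper right (mean rho from 0.41 to 0.72), and the green points run from EIF5A at the lower left to EIF3H among the red ones.

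The genes outside the 10 with the most similar behaviour over cells, by mean rho, were GNB2L1 (0.66), EIF3H (0.58), ZNF90 (0.55), NACA (0.54), SLC25A6 (0.48), NAP1L1 (0.44), EEF1D (0.44), BTF3 (0.42), IMPDH2 (0.38) and C6orf48 (0.38). GNB2L1, now RACK1, encodes a protein of the small ribosomal subunit. NACA and BTF3 encode the nascent polypeptide-associated complex. Of the 7 with a promoter entry, 6 had the C-led pyrimidine start shown above, the exception being ZNF90. Of 1571 ranked genes outside the 10 with an entry, 9.99% had it. The lowest mean rho values were those of YWHAB (-0.48), CFL1 (-0.46), ACTB (-0.45), TCEB1 (-0.44) and PSMA7 (-0.43).

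A list of 7 other genes with known TOP messages was also examined. Of these, 4 (GNB2L1, EIF3H, HNRNPA1 and NAP1L1) were at least 1.5-fold higher in DMSO at 72 h than at 24 h. PABPC1, EEF1D and VIM were not (log2 ratios 0.09, 0.19 and 0.54). PABPC1, EEF1D and EIF3H are also in the translation factor lists above, so these counts are not separate from those. A rho of 0.3 was reached by 5, 4, 6 and 5 of the 7 genes over the cells of the 4 libraries. PABPC1 did not reach it in any, at -0.089, 0.276, 0.246 and 0.289. HNRNPA1 was at 458, 581, 948 and 422 CPM, and NAP1L1 at 408, 523, 709.7 and 465 CPM. VIM was at 1287, 1824, 1872 and 1908 CPM, with a rho of only 0.04 to 0.33. HNRNPA1 has many processed pseudogenes, so its counts are uncertain.

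The start was then set against the relation over cells. Of the ranked genes outside the 10, 1571 had a promoter entry, and the median of the mean rho was -0.10 for the 157 with such a start and -0.19 for the 1414 without. A mean rho of at least 0.3 was found for 12 of the 157 (7.64%) and for 3 of the 1414 (0.212%). These counts include the genes of most similar behaviour named above, so they are not separate from the count of starts given there.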

How the data were processed

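Single-cell RNA-seq of HCC1143 cells was deposited as 1 table of raw UMI counts per library, by gene symbol and cell barcode; per the submitters' processing notes the authors used Cell Ranger 2.0 and GRCh38. The selection of barcodes is not stated in these sources. The fewest cells with a UMI of any gene in a table were 12, 8, 8 and 6, so a gene missing from a table is not a measured 0. Cells with at least 500 genes and under 20% of UMIs from MT- genes were kept, and UMIs were summed per library and scaled to CPM. Groups came from the sample titles. With 1 library per group no p-value was computed. Intervals are exact Poisson (ratios: Clopper-Pearson) 95% intervals. Doublets were not removed. Genes were called at 1.5-fold (1.2-fold between sets of cells) or a Spearman's rho of 0.3.

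The members and lists were chosen with earlier results of these data known. Named genes are the 10, up to 2 highest and 2 lowest of each translation factor list by the DMSO ratio, the 10 highest and 5 lowest by mean rho, and 7 TOP genes; EIF3K and VARS were named outside this rule, after their values were seen. The comparison of paclitaxel 72 h with DMSO 24 h, the background of the lowest library in matched cells and that of gene pairs were added after the data had been seen. Alternatives covered scaling (edgeR 4.0.16 TMM), cell filters, thinning, depth, non-cycling cells and thresholds. Python 3.11.15, scipy 1.17.1 and R 4.3.3 were used, and the calculations were tested on simulated data. Start sequences are from RefSeq on GRCh38.p14 and loci from GENCODE 29.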

Additional observations from a re-analysis of the deposited data

Results flagged for a closer look

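For 9 of the 10 genes the log2 ratio of paclitaxel to DMSO was above 0 at 24 h and below 0 at 72 h, so the contrast had opposite signs at the 2 times. The exception was EEF1G, at 1.27 and 0.25, whose sign at 72 h depended on the scaling. The opposite signs were shared by 5.79% of 2503 other genes, and with 1 library per group the difference between the times was not tested.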

How the results depend on the processing

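No paired analysis was possible because each group was 1 library. Of 156 recomputed counts, 138 stayed within 1.5 times the reported count. Counts that stayed at 0 are among these, and a count of 9 of the 10 genes cannot rise 1.5-fold, so this total says little about single values. Of the recomputed log2 ratios of single genes, 117 moved outside the counting interval of the reported ratio and 83 did not. Of the recomputed rho values of single genes, 137 were called moved and 223 unchanged. Signs of log2 ratios under 1.5-fold did change: EEF1G in paclitaxel against DMSO at 72 h went from 0.25 to -0.05 with totals without ribosomal protein and MT- genes and to -0.03 with TMM factors. In paclitaxel 72 h against 24 h, TMM factors turned EEF2 (0.14 to -0.08), EIF3E (0.10 to -0.13) and TPT1 (0.14 to -0.09), and totals without those genes turned EIF3E. The count of the 10 genes at least 1.5-fold higher in DMSO at 72 h against 24 h was 9 to 10, with paclitaxel at 24 h 6 to 9, and of those lower with paclitaxel at 72 h 7 to 8. The ribosomal protein order held for 6 to 9, and a rho of 0.3 for 7 to 10 in DMSO 24 h, 8 to 10 in DMSO 72 h and 9 to 10 in both paclitaxel libraries. The 1 gene (EEF1G) higher in paclitaxel 72 h than 24 h became 0 with totals without ribosomal protein and MT- genes, with TMM factors and with the mean CPM of cells; paclitaxel 72 h against DMSO 24 h gave 3 with TMM factors in place of 6. For DMSO 72 h against 24 h, totals without those genes gave 0 lower in place of 1 for eIF3, 1 higher in place of 0 and 2 lower in place of 7 for eIF1, eIF2, eIF5 and eIF6, 0 lower in place of 2 for termination, and 7 lower in place of 15 for the 5 lists pooled. A minimum of 10 CPM gave 5 lower in place of 2 for elongation, 2 in place of 1 for eIF3, 2 higher in place of 0 for eIF1, eIF2, eIF5 and eIF6, 2 lower in place of 0 for mitochondrial factors and 23 lower in place of 15 pooled. Pooled with paclitaxel, totals without those genes gave 0 lower in place of 1 at 24 h, and 4 higher in place of 9 and 3 lower in place of 0 at 72 h, where 10 CPM gave 18 higher. A minimum of 10 CPM tests more genes; other causes were not tested. EEF1G, at 859 to 1887 UMIs per library, is the gene that depth limits most.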
